A study of Mus musculus with 8 samples.

Results

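The genes described here encode 4 families of enzymes that handle drugs, dietary compounds and other foreign chemicals in the gut wall: cytochrome P450s of families 1 to 4 (Cyp), glutathione S-transferases (Gst), UDP-glucuronosyltransferases of families 1 and 2 (Ugt) and sulfotransferases (Sult). A gene was a member when its array symbol belonged to one of these families, when it had a probe set of its own, and when its signal was above 64 in at least 2 of 8 arrays. Of 96 genes with such a symbol and probe set, 64 passed the signal rule, out of 14036 genes that passed it in all. The members were 34 cytochrome P450s (2 Cyp1, 23 Cyp2, 3 Cyp3 and 6 Cyp4), 18 Gst, 5 Ugt and 7 Sult genes. The members nearest the limit were Gsto2, Sult4a1 and Cyp2r1, with second-highest signals of 67.4, 71.7 and 73.0, and the nearest genes left out were Cyp4f39, Ugt2b38 and Cyp2c29, at 60.7, 59.6 and 56.8. Of the members, 36 were above 64 in all 8 arrays. Genes of the Ugt1a locus share their probe sets and were therefore not members.

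RNA came from C57BL/6 mice aged 110 days and was pooled within each genotype and tissue. Non-tumour colon and small intestine came from WT mice and from ACKR2-/- mice, which lack the atypical chemokine receptor ACKR2, also known as D6, and carry the normal Apc gene. Spontaneous tumours of the colon and of the small intestine, given as ileum for the tumours, came from ApcMin/+ mice, which carry 1 mutated copy of the tumour suppressor Apc in every cell, and from ACKR2-/-ApcMin/+ mice, which carry both changes. No non-tumour tissue of an ApcMin/+ mouse was among the arrays, so tumour status and Apc genotype cannot be told apart. Each of the 8 groups was 1 Affymetrix array (n = 1), the number of animals in a pool was not given, and 8 arrays limit the precision of every value.

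Oxidation by a cytochrome P450 commonly exposes or adds a reactive group on a fat-soluble compound, and transferases then attach glutathione, glucuronic acid or sulfate so that the product can be exported. In the intestine these enzymes act mainly in absorptive epithelial cells and form the first metabolic barrier to swallowed chemicals. Several families also act on the body's own steroids, bile acids, retinoids and eicosanoids, and many are known to be controlled by the aryl hydrocarbon receptor (Ahr) and by nuclear receptors such as the pregnane X receptor (Nr1i2) and the constitutive androstane receptor (Nr1i3).

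Signals are MAS5 values on a linear scale. For tests they were raised to a floor of 64 and log2-transformed, so a difference from a value at the floor understates the true one. One limma model over all 14036 genes gave each log2 difference, its standard error (SE) and a p-value adjusted by the Benjamini-Hochberg method, and genes under 0.05 were called. The SE reflects how unlike the effect of ACKR2 was in colon and small intestine, and holds no variation between animals. Where both arrays of a pair lay below the floor, the ACKR2 effect was set to 0 and the SE does not measure this unlikeness. Among called members this holds for Cyp3a11, Cyp3a25, Ugt2a3, Ugt2b5 and Cyp2u1, below the floor in all 4 colon arrays. It also holds for Ugt2b36, below it in both non-tumour colon arrays, and for Cyp2d12 and Cyp2f2, below it in small intestine. In tumours it holds for Cyp2d10, Cyp2d34 and Sult5a1 in small intestine and for Cyp2j9 in colon. Median signals of the arrays ran from 85.5 to 133.1. The summed signal of 13 enterocyte markers was 266700 and 210600 in WT and ACKR2-/- small intestine against 13660 and 12680 in colon. Of the 10 colonocyte markers, Car1, Aqp8 and Slc37a2 set the WT small-intestinal array apart from the other small-intestinal arrays. Car1 read 18860 there, beside 19160 in WT colon, and 42.3 to 114.0 in the other 3; Aqp8 read 957.7 against 105.1 to 122.0, and Slc37a2 577.5 against 23.3 to 85.3. Car4, Slc26a3, Saa1, Ggh and Muc3 did not, and were lower in WT than in ACKR2-/- small intestine. The colonocyte markers Atp12a and Scnn1g were below the floor in all 4 small-intestinal arrays. The sum of all 10 was 82380 in WT and 70540 in ACKR2-/- small intestine. Results that rest on the WT small-intestinal array are therefore given with the ACKR2-/- pair beside them where there is one. The Ackr2 probe set read between 71.3 and 153.1 in all 8 arrays and did not separate the genotypes. Sex differed between pools: Xist, expressed from the inactive X chromosome, read 9809 and 7807 in the WT arrays, 77.9 and 126.9 in the ACKR2-/-ApcMin/+ arrays and 2818 to 4827 in the others, while the Y-linked Eif2s3y read 2.92 and 2.66 in the WT arrays and 888.1 to 1501 in the rest. Sex and genotype therefore cannot be told apart in any comparison that uses those arrays.

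**Figure D1:**
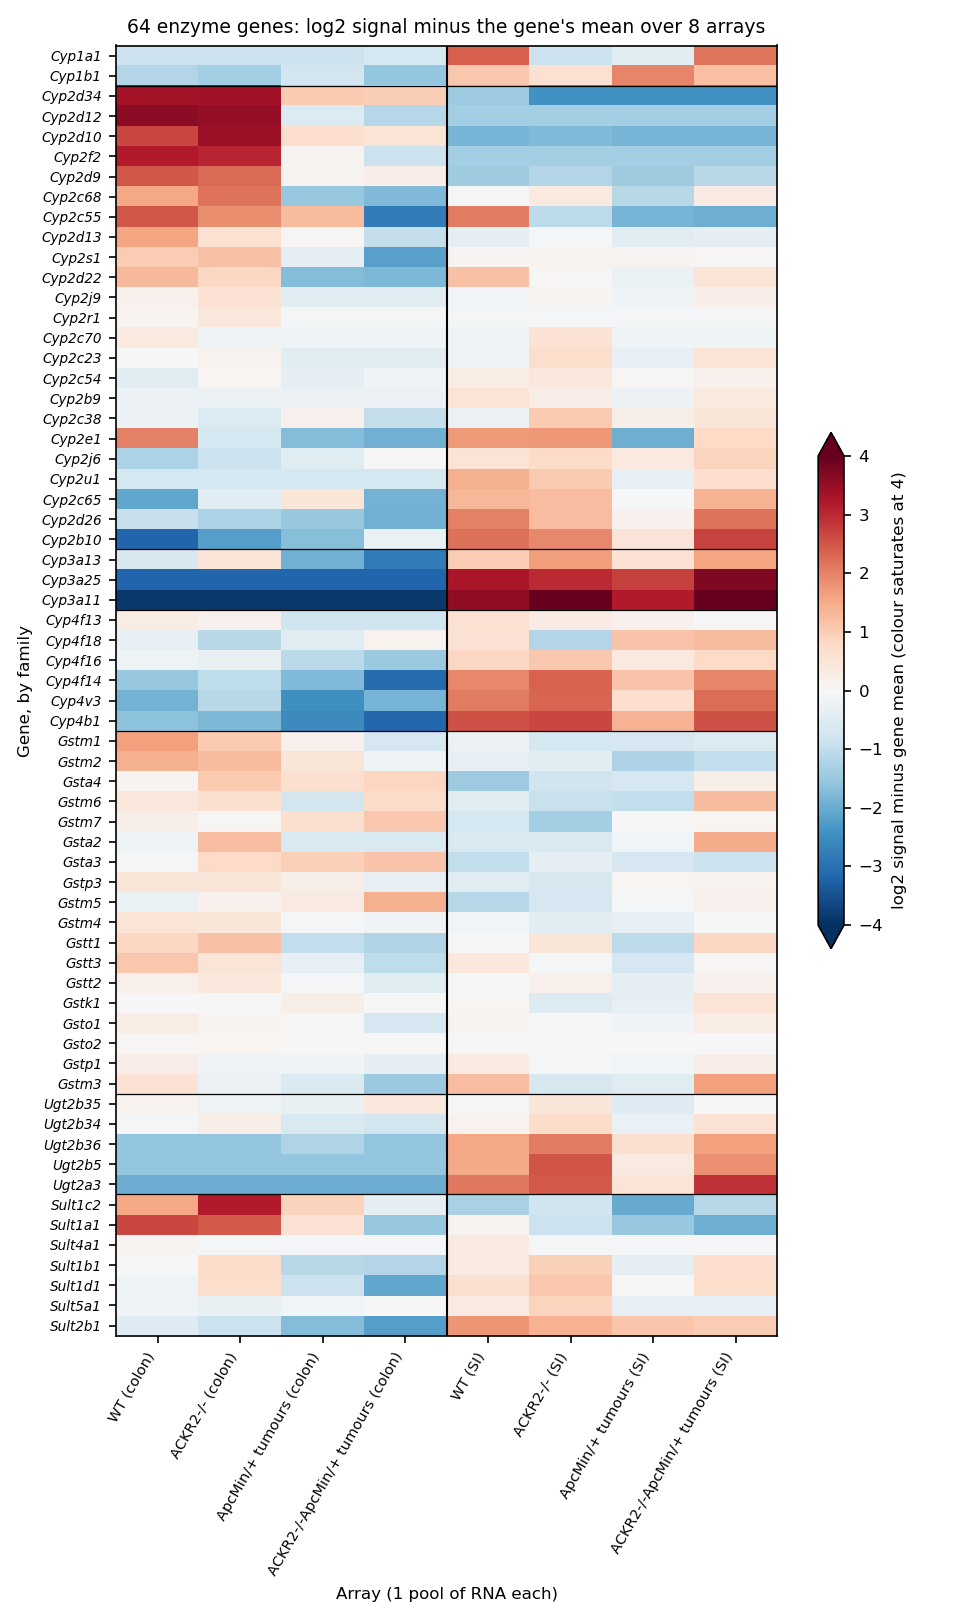
Log2 signal of 64 enzyme genes (rows, grouped by family) in 8 arrays (columns), minus the mean of each gene over the 8 arrays; signals below 64 were set to 64. Colon arrays stand left of the vertical line and small-intestinal (SI) arrays right of it, and the largest contrasts run between these tissues, in opposite directions for Cyp3a11 and Cyp2d12.

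The colon and the small intestine differed in which enzymes they expressed. Between the non-tumour tissues 16 of the 64 members were called higher in colon, against 13.0% of all genes, and 16 were called lower, against 8.38% of all genes; for the members both shares were 25.0%. At least 2-fold in both the WT and the ACKR2-/- pair, 11 members were higher (17.2%, against 7.08% of all genes) and 17 were lower (26.6%, against 4.94%). With any 1 array left out, the model called 0 to 3 members in place of 32 and 0 to 57 of all genes in place of 2994, and the 3 were called without the ACKR2-/-ApcMin/+ colon tumour array. Whole families leaned one way. All 3 Cyp3, all 6 Cyp4 and all 5 Ugt members had a mean difference below 0, against 41.9% of all genes. A value below 0 is a higher level in small intestine, and 9 of these 14 members were called lower, against 8.38% of all genes. Single pairs were less uniform: Cyp4f18 was at 0.05 in the ACKR2-/- pair, and Ugt2b35 read 1127 in WT colon against 971.1 in WT small intestine. Cyp3a11, Cyp3a25, Ugt2a3 and Ugt2b5, all among the 9 called, and Cyp2u1 passed the filter through small-intestinal arrays alone. These genes could not have come out higher in colon. Cyp2d12 and Cyp2f2 passed through colon arrays alone, and the reverse holds for them. The Gst family was the reverse, with 8 of 18 members called higher in colon and 0 lower.

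Cyp3a11, which oxidises a broad range of drugs and bile acids and is a classic target of Nr1i2, showed the widest gap. Its signal was 10920 and 15490 in WT and ACKR2-/- small intestine and 8481 and 23530 in ApcMin/+ and ACKR2-/-ApcMin/+ small-intestinal tumours, against 18.0, 2.20, 25.3 and 54.2 in the matching 4 colon arrays. All 4 colon arrays thus lay below the floor and all 4 small-intestinal arrays far above it. Non-tumour colon was at least 171-fold lower in the WT pair and at least 242-fold lower in the ACKR2-/- pair (log2 difference -7.67 ± 0.35 SE, adjusted p = 0.00015, limma). Cyp3a25, its neighbour in the genome, read 5536, 4575, 3882 and 7471 in the small-intestinal arrays in the same order and at most 2.07 in colon. It too was below the floor throughout the colon, at a log2 difference of -6.30 ± 0.28 (adjusted p = 0.000121, limma). Cyp3a13, the third Cyp3 member, was measurable in both tissues, with 9119 and 14390 in non-tumour small intestine and 2883 and 6489 in colon, and missed the threshold (-1.40 ± 0.42, adjusted p = 0.0626).

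Among the other cytochrome P450s of the small intestine were Cyp2b10, a target of Nr1i3, and 4 members of the Cyp4 family, which hydroxylate fatty acids and related lipids. Cyp2b10 read 2629 and 2157 in WT and ACKR2-/- small intestine and 29.5 and 124.0 in colon, so that the lower small-intestinal value was 17.4 times the higher colonic one (-4.74 ± 0.35, adjusted p = 0.000731). Cyp4b1 read 3311 and 3654 in small intestine against 182.7 and 161.7 in colon (-4.34 ± 0.40), Cyp4v3 read 7275 and 8663 against 466.5 and 789.5 (-3.71 ± 0.26), and Cyp4f14, which hydroxylates leukotriene B4, read 9719 and 13160 against 887.7 and 1265 (-3.42 ± 0.44). In each of these genes the groups did not overlap, but the genes were picked for a 2-fold or larger difference in both pairs. Cyp1b1, Cyp2u1, Cyp2j6, Cyp4f16 and Cyp2d26 were also called lower in colon, with log2 differences from -2.73 for Cyp2d26 to -1.20 for Cyp4f16, whose second probe set gave -0.48.

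The colon had its own set of cytochrome P450s, 4 of them from the Cyp2d family, whose human relative CYP2D6 oxidises many drugs. Cyp2d12 read 1959 and 1868 in WT and ACKR2-/- colon and 1.11 and 13.7 in small intestine, at least 30.6-fold and 29.2-fold higher in colon (4.90 ± 0.26, adjusted p = 0.000221, limma). Cyp2d34 read 3466 and 3503 against 123.7 and 40.8 (5.29 ± 0.30, adjusted p = 0.000281), and Cyp2d10 read 1480 and 2478 against 21.8 and 68.5 (4.85 ± 0.28, adjusted p = 0.000281). Non-tumour colon stood above non-tumour small intestine in both pairs of each gene, as the 2-fold rule that picked these genes requires. Cyp2d9 was higher in colon as well, at 944.8 and 817.5 against 63.95 and 75.4 (3.66 ± 0.25). Cyp2f2, known for activating naphthalene in the airways, read 1465 and 1341 in colon and stayed below the floor in small intestine (4.45 ± 0.30), and Cyp2c68 read 5922 and 9110 against 1957 and 2677 (1.68 ± 0.36).

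The Cyp2d genes lie side by side, in a run of 7 members on chromosome 15 in the RefSeq gene table, yet Cyp2d26 was high in small intestine, at 3595 and 2073 against 465.6 and 363.2 in colon (-2.73 ± 0.52, adjusted p = 0.0166). Cyp3a11 and Cyp3a25 are likewise neighbours on chromosome 5. RefSeq promoter sequences of build GRCm38.p6, which run from 250 bases before to 50 bases after the start of the gene, were found for 54 of the 64 members, and 5 are printed to set 2 colon-high Cyp2d genes beside their small-intestine-high neighbour and beside the Cyp3a pair. They lie at chr15:82452127-82452426 (plus strand) for Cyp2d9, chr15:82407145-82407444 (minus) for Cyp2d10, chr15:82794196-82794495 (minus) for Cyp2d26, chr5:145879805-145880104 (minus) for Cyp3a11 and chr5:146009569-146009868 (minus) for Cyp3a25, the first of its 2 listed starts. Each is written 5′ to 3′ on the strand of the gene, and capitals mark, on either strand, the nuclear receptor half-site AGGTCA, the site CAAAGTCCA of the type that HNF4 factors bind, the half-site GTTAAT of HNF1 factors, and the core promoter element written TATAAA.
Cyp2d9: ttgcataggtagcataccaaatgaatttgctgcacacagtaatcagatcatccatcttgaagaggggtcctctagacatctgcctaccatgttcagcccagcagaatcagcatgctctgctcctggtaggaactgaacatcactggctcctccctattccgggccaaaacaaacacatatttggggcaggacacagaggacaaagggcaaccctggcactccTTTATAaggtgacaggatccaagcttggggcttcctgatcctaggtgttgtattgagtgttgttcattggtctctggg
Cyp2d10: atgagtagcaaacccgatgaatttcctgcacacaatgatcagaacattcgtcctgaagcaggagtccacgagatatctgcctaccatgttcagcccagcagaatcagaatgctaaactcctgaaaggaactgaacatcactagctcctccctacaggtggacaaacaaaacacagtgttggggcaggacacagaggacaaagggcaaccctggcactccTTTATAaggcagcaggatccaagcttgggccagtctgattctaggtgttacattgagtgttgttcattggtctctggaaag
Cyp2d26: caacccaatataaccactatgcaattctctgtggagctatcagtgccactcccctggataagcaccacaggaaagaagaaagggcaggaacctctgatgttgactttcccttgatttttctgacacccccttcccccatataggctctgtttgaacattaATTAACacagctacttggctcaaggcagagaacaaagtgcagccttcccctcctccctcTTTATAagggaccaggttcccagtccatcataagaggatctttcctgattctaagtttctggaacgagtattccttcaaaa
Cyp3a11: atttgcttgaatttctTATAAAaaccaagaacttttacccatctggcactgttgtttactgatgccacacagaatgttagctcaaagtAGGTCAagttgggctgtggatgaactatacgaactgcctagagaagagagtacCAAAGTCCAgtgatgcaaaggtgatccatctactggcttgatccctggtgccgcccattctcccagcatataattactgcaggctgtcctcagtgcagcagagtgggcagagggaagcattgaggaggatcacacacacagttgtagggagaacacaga
Cyp3a25: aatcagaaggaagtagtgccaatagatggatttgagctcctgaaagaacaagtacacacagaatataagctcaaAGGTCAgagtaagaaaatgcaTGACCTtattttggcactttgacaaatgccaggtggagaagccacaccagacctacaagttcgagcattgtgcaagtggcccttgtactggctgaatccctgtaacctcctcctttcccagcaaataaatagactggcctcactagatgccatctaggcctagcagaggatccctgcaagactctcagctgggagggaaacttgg

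The promoters of Cyp2d9 and Cyp2d10 were 82.9% identical over their alignment, while that of Cyp2d26 shared 50.7% and 50.3% with them. Cyp3a11 and Cyp3a25 were 52.9% identical, and the Cyp2d promoters shared 43.8% to 49.9% with those of Cyp3a genes. All 3 held TATAAA on the reverse strand shortly before the start, and GTTAAT, on the reverse strand, was found in Cyp2d26 but not in the other 2. Cyp3a11 held CAAAGTCCA and AGGTCA, and Cyp3a25 held AGGTCA on both strands. Over the members with a promoter, CAAAGTCCA was present in 5 of 54 (Cyp2c65, Cyp2c68, Cyp2c70, Cyp3a11 and Sult1b1), against 0.475% of all 32851 promoters of this length. AGGTCA was in 11 of 54 members (20.4%) against 16.3% of all promoters, GTTAAT in 7 (13.0%) against 7.10%, and TATAAA in 15 (27.8%) against 13.6%. The aryl hydrocarbon receptor core GCGTG was in 17 of 54 (31.5%) against 32.4% of all. A member was counted when any of its listed promoters held the site, while the shares of all are over single promoters, so the measures differ. These are counts of letters in related genes, several of which share ancestry, and none of them is evidence of binding.

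**Figure D2:**
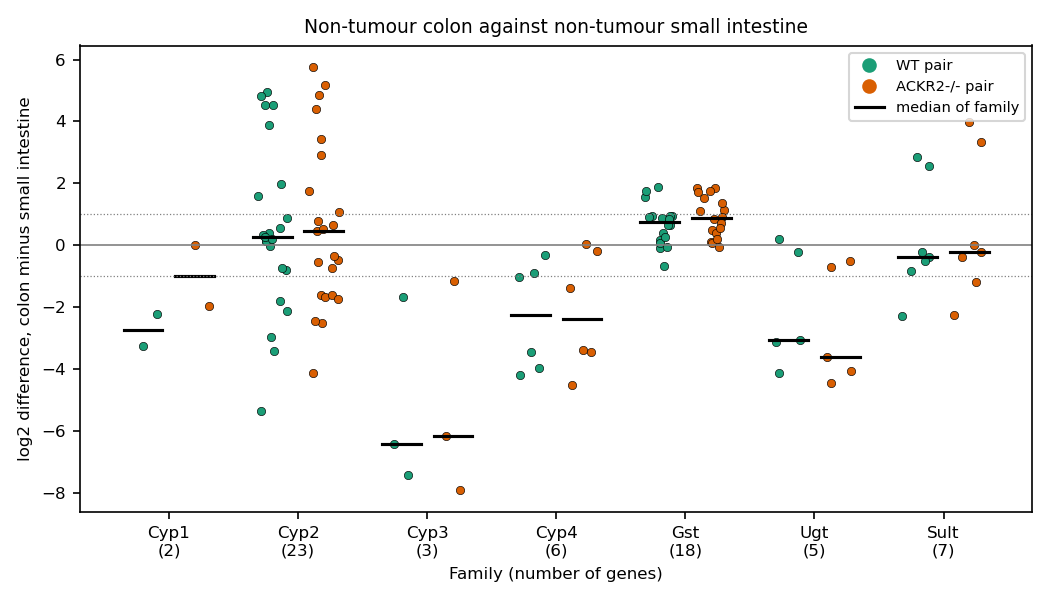
Log2 difference between non-tumour colon and non-tumour small intestine for 64 genes by family; green points are the WT pair, orange points the ACKR2-/- pair, bars the family median in each pair and dotted lines 2-fold. Every Cyp4 gene lies below 0 in the WT pair, and Cyp2 genes spread from -5.36 for Cyp2b10 to 4.94 for Cyp2d12 in it.

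Conjugating enzymes split by family too. Of the Gst genes, whose products attach glutathione to reactive compounds, Gstm1 read 6381 and 4261 in colon against 1749 and 1275 in small intestine (1.80 ± 0.24, adjusted p = 0.0049), and Gstm2 read 2408 and 2128 against 719.5 and 649.0 (1.73 ± 0.25). Gsta4, which detoxifies the lipid peroxidation product 4-hydroxynonenal, read 2335 and 4460 against 790.5 and 1231 (1.71 ± 0.20). Gstm5, Gstm6, Gstm7, Gsta3 and Gstp3 were called at smaller sizes, from 0.88 for Gstm5 to 1.24 for Gstm6, and a second probe set of Gstm7 gave 0.04. Of the 8 Gst genes called, 5 are Gstm genes, whose probe sets may share target sequence and so may not be separate measurements; the same holds for Cyp2c genes. Gstp1, Gsto1, Gstk1 and Gstt2 had differences between -0.06 and 0.24 and were not called. The sulfotransferases went both ways: Sult1a1, which sulfates phenols, read 4321 and 3751 in colon against 728.5 and 373.7 in small intestine (2.95 ± 0.41), and Sult1c2 read 1078 and 3348 against 150.9 and 212.9 (3.41 ± 0.55). Sult2b1, which sulfates cholesterol, was the reverse at 776.3 and 614.0 against 3779 and 2934 (-2.27 ± 0.17, adjusted p = 0.000815). Sult5a1 was also called lower in colon (-0.84 ± 0.22), with every colon array at or below 82.6.

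Glucuronidating Ugt2 enzymes were strong in small intestine and 3 of the 5 lay below the floor in non-tumour colon. Ugt2a3 read 1114 and 1391 in WT and ACKR2-/- small intestine and 1.56 and 1.54 in colon, at least 17.4-fold and 21.7-fold lower (-4.28 ± 0.53, adjusted p = 0.00424). Ugt2b5 read 530.8 and 1074 against 6.58 and 2.60 (-3.56 ± 0.43), and Ugt2b36 read 550.7 and 783.7 against 60.01 and 45.4 (-3.36 ± 0.38). Both tissues expressed Ugt2b34, at 7956 and 9870 in colon and 9190 and 14160 in small intestine, and Ugt2b35, at 1127 and 902.4 against 971.1 and 1453; neither was called. These differences moved with the 13 enterocyte markers, all called lower in colon. Fibroblast markers were called higher in colon for 7 of 8 (summed signals 56680 and 46970 against 23520 and 15510), colonocyte markers for 5 of 10, and smooth muscle markers for 4 of 10 (137500 and 116300 against 65270 and 69980); their part in the result was not tested.

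Other genes of the pathway are read against the same shares of all genes, 13.0% higher and 8.38% lower in colon. Of 34 other phase I enzymes measured, 8 were called higher (23.5%) and 8 lower (23.5%) in colon, including the alcohol dehydrogenase Adh6a, at 84.1 and 73.8 in colon against 4438 and 5196 in small intestine (-5.93 ± 0.38), and the carbonyl reductase Cbr3, at 2997 and 2734 against 273.0 and 174.9 (3.71 ± 0.44). Of 17 genes for other conjugation and cofactor supply, 1 was higher (5.88%) and 2 were lower (11.8%), near the shares of all genes, among them the N-acetyltransferase Nat8 (-4.17 ± 0.25). Of 15 transporters, 1 was higher (6.67%) and 6 were lower (40.0%); the conjugate export pump Abcc2 read 88.7 and 115.2 in colon against 3018 and 1614 in small intestine (-4.45 ± 0.47). Of 25 receptors and regulators, 4 were higher, near the share of all genes, and 5 were lower (20.0%), with Hnf4g (-3.12 ± 0.25), Gata4 (-2.70 ± 0.35) and Cdx2 (-2.60 ± 0.47), factors of intestinal identity, lower in colon and Foxa2 (2.55 ± 0.24) higher. Nr1i2 was not called, at 1355 and 357.3 in colon against 1257 and 759.4 in small intestine.

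Colon tumours had lower levels of many of these enzymes than non-tumour colon. Of the 64 members 22 were called lower (34.4%), against 12.5% of all genes, and 3 were called higher, against 11.0% of all genes. The median member difference was -0.59, against 0.00 over all genes tested. The reduction was at least 2-fold in both pairs, ApcMin/+ against WT and ACKR2-/-ApcMin/+ against ACKR2-/-, for 19 members (29.7%), against 6.17% of all genes, and the only rise of that size in both was that of Cyp2b10, against 4.87% of all genes. With any 1 of the 8 arrays left out the model called 0 of all genes, in place of 3297, and so 0 members; without the filter on low signals it also called 0 members. Members called lower were found in every family but Cyp1 and Ugt: 10 of 23 Cyp2, 1 of 3 Cyp3, 2 of 6 Cyp4, 4 of 18 Gst and 5 of 7 Sult. For some members a fall could not be measured. Ugt2a3, Ugt2b5, Cyp3a11 and Cyp3a25 were below the floor in all 4 colon arrays, and Ugt2b36 and Cyp1a1 in both non-tumour ones. Ugt2b34 stood at -0.74, or -1.0 with its other probe set, and was not called. Ugt2b35 read 1127 and 902.4 in non-tumour colon and 845.9 and 1395 in tumours.

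The cytochrome P450s that marked the colon were among those that fell. The same non-tumour colon arrays enter both comparisons, so a high level in colon and a fall in its tumours are not independent results. Cyp2d12 dropped from 1959 in WT and 1868 in ACKR2-/- colon to 112.3 in ApcMin/+ and 74.1 in ACKR2-/-ApcMin/+ tumours, 17.4-fold and 25.2-fold (-4.39 ± 0.26, adjusted p = 0.00113, limma). Cyp2f2 went from 1465 and 1341 to 175.1 and 90.1 (-3.48 ± 0.30), and Cyp2c68 from 5922 and 9110 to 703.8 and 601.7 (-3.50 ± 0.36, adjusted p = 0.00358). Both tumour arrays lay below both non-tumour arrays in each of these genes, which were picked for a 2-fold or larger fall in both pairs. Of the 7 Cyp2d members 6 were called lower, with Cyp2d22 at -2.83 ± 0.32, Cyp2d10 at -2.45 ± 0.28, Cyp2d34 at -2.34 ± 0.30, Cyp2d9 at -2.18 ± 0.25 and Cyp2d13 at -1.55 ± 0.41. The seventh, Cyp2d26, read 465.6 and 363.2 in non-tumour colon and 308.8 and 232.2 in tumours and was not called. Probe sets of these closely related genes may share target sequence, and Cyp2d13 is annotated as a transcribed pseudogene in RefSeq.

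Cyp2s1, an epithelial enzyme linked to retinoid oxidation, read 3398 and 3794 in WT and ACKR2-/- colon, 1293 in ApcMin/+ tumours and 374.5 in ACKR2-/-ApcMin/+ tumours (-2.37 ± 0.37). Cyp3a13 read 2883 and 6489 against 1189 and 642.5 (-2.31 ± 0.42, adjusted p = 0.015). Cyp4f16 (-1.04 ± 0.22), Cyp4f13 (-1.03 ± 0.19) and Cyp2j9 (-0.81 ± 0.20) were called with smaller sizes, and a second probe set of Cyp4f16 gave -0.32. Cyp2c55, which hydroxylates arachidonic acid, read 13210 and 8671 in non-tumour colon, 5755 in ApcMin/+ tumours and 340.1 in ACKR2-/-ApcMin/+ tumours. Its difference was 2.30-fold in one pair and 25.5-fold in the other and was not called (-2.94 ± 0.96, adjusted p = 0.0755).

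Sulfotransferases were the family with the highest share called lower in colon tumours. Sult1a1 went from 4321 and 3751 to 1020 in ApcMin/+ and 239.5 in ACKR2-/-ApcMin/+ tumours (-3.03 ± 0.41, adjusted p = 0.00649). Sult1b1, which acts on thyroid hormones, went from 4299 and 7251 to 2019 and 1960 (-1.49 ± 0.26), and Sult2b1 from 776.3 and 614.0 to 336.1 and 239.8 (-1.28 ± 0.17). Sult1c2 (-2.08 ± 0.55) and the dopamine sulfotransferase Sult1d1 (-1.73 ± 0.43) were called lower too, but each fell by under 2-fold in the ApcMin/+ pair, 1.54-fold and 1.58-fold, and by 11.6-fold and 6.92-fold in the pair without ACKR2. The 2 Sult members that were not called, Sult4a1 and Sult5a1, had no signal above 82.6 in any colon array.

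Of the 18 glutathione S-transferases 4 fell and 1 rose. Gstt1, of the theta class that acts on small halogenated molecules, read 1313 and 1693 in WT and ACKR2-/- colon and 372.8 and 324.7 in tumours (-2.10 ± 0.45, adjusted p = 0.0239). Gstm1 went from 6381 and 4261 to 2303 and 1300 (-1.59 ± 0.24), Gstt3 from 2031 and 1370 to 772.0 and 474.1 (-1.46 ± 0.33) and Gstm2 from 2408 and 2128 to 1265 and 788.8 (-1.18 ± 0.25). Tumours were below non-tumour colon in both pairs of each, and Gstt1, Gstm1 and Gstt3 were picked for a 2-fold or larger fall in both. Other probe sets of Gstm1 gave -0.63, -0.9 and -1.64. Gstm5 was opposite, at 2193 and 2976 in non-tumour colon and 3334 and 7055 in tumours (0.92 ± 0.22, adjusted p = 0.0305). The difference between families in the share called was not tested.

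The other members called higher in colon tumours were Cyp2b10 and Cyp2j6. Cyp2b10 read 29.5 in WT and 124.0 in ACKR2-/- colon, 175.0 in ApcMin/+ and 478.1 in ACKR2-/-ApcMin/+ tumours, at least 2.73-fold and 3.86-fold higher (1.70 ± 0.35, adjusted p = 0.0207). Its other probe sets gave 0.97 and 0.72. Cyp2j6, which epoxidises arachidonic acid, read 338.1 and 450.8 against 584.8 and 799.0 (0.81 ± 0.17), but 0.09 with its second probe set. When the probe sets of a gene were averaged instead of taking the brightest, 0 members were called higher in colon tumours and 19 lower.

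**Figure D3:**
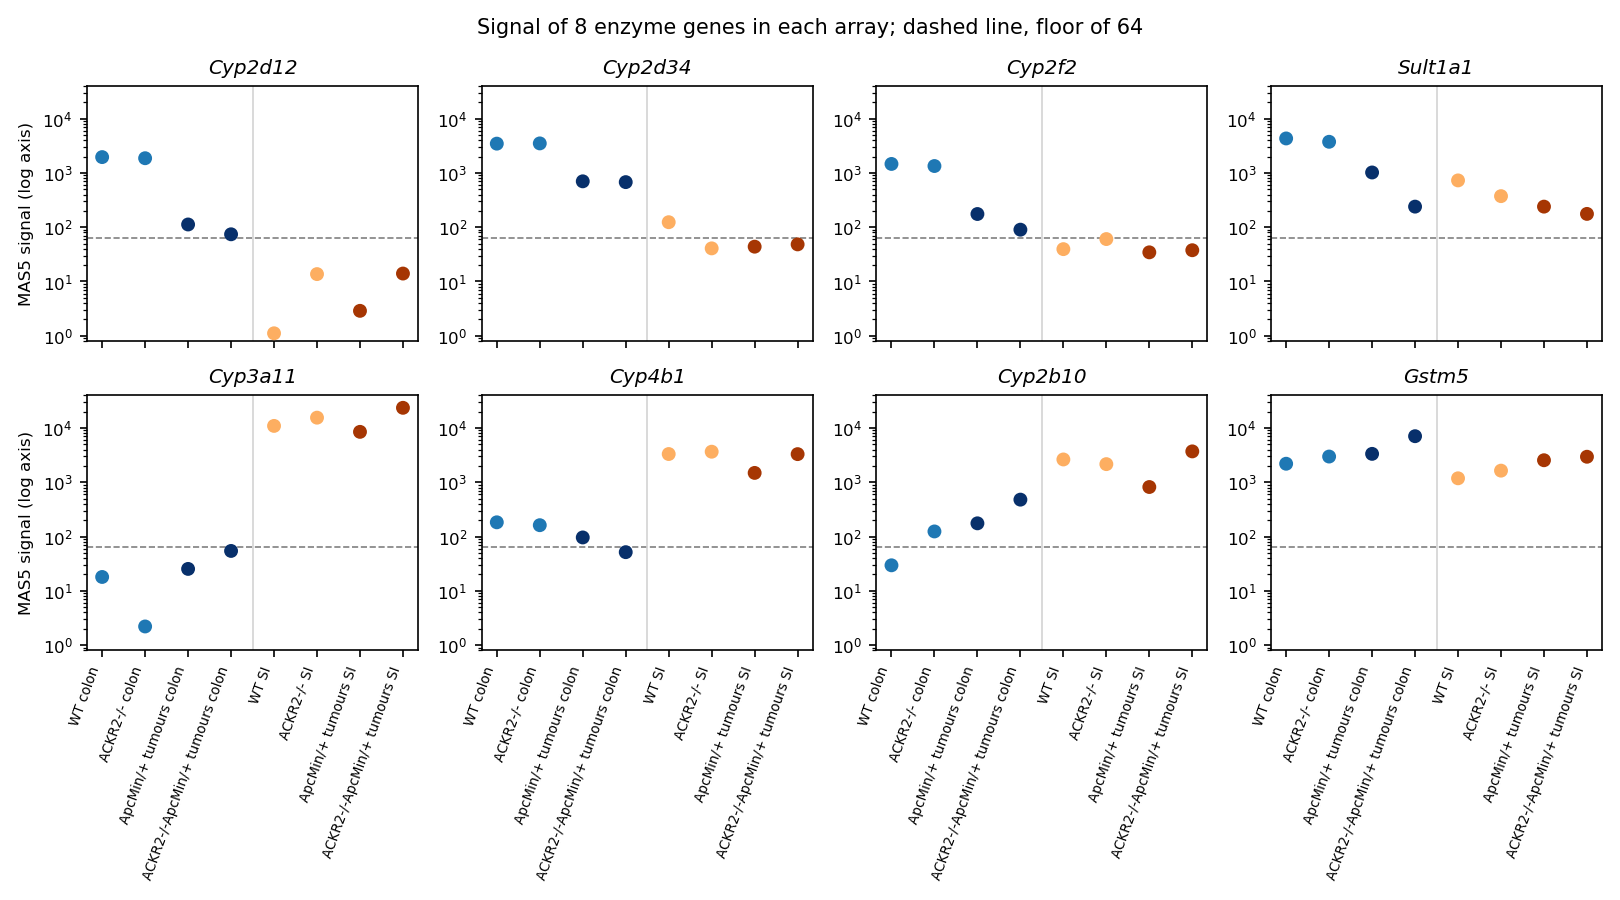
MAS5 signal (log axis) of 8 enzyme genes in each of 8 arrays, 1 point per array; the dashed line is the floor of 64, and SI stands for small intestine. Cyp2d12, Cyp2d34, Cyp2f2 and Sult1a1 are highest in non-tumour colon and lower in colon tumours, Cyp3a11 and Cyp4b1 are high in small intestine, and Gstm5 is highest in ACKR2-/-ApcMin/+ colon tumours, at 7055.

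Other genes of the pathway are read against the 12.5% of all genes lower and 11.0% higher in colon tumours. Of 34 other phase I enzymes 16 were called lower (47.1%) and 0 higher (median -1.18). The flavin monooxygenase Fmo2 went from 1608 and 3305 to 202.7 and 113.1 (-3.93 ± 0.28), Fmo5 from 814.6 and 528.9 to 93.5 and 70.2 (-3.02 ± 0.31), the monoamine oxidase Maob from 1772 and 2694 to 365.0 and 184.8 (-3.07 ± 0.39) and the carboxylesterase Ces2a from 3244 and 4059 to 816.9 and 417.9 (-2.63 ± 0.35). Among 25 receptors and regulators 11 were lower (44.0%) and 1 higher; Nr1i2 (-1.16 ± 0.32, adjusted p = 0.0461), Nr1i3 (-1.63 ± 0.36), its partner Rxra (-1.17 ± 0.24), the vitamin D receptor Vdr (-2.54 ± 0.39), Hnf4g (-1.68 ± 0.25) and Ppard (-1.61 ± 0.24) were lower, and Foxa1 (0.68 ± 0.16) was higher. Among 15 transporters 6 were lower (40.0%), including the drug efflux pump Abcb1a at 8537 and 8759 against 2112 and 873.2 (-2.67 ± 0.37), Slco2b1 (-1.88 ± 0.25) and Slco2a1 (-2.42 ± 0.44), and 2 were higher (13.3%), near the share of all genes. Among the higher was Abcc4, an exporter of prostaglandins and conjugates, at 728.3 and 681.4 in non-tumour colon and 3010 and 4975 in tumours (2.46 ± 0.44). Of 17 genes for other conjugation and cofactor supply 3 were lower (17.6%), not far from the share of all genes, with Papss1, which makes the sulfate donor, at -1.22 ± 0.17, and 1 was higher.

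In pooled tissue, fewer cells of a type and less RNA per cell cannot be told apart. Colonocyte markers moved with the enzymes: 6 of 10 were called lower in colon tumours and 0 higher, and their summed signal was 160200 and 154300 in non-tumour colon and 66170 and 53360 in tumours. Smooth muscle markers fell further, with 10 of 10 called lower and a summed signal of 137500 and 116300 against 36200 and 9834. Fibroblast markers had 4 of 8 called lower and 0 higher, with summed signals of 56680 and 46970 against 40090 and 23160. Macrophage markers had 1 of 6 called in each direction. The part of these cell types in the result was not tested.

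In small-intestinal tumours 0 of the 64 members were called in either direction, against 3.90% of all genes. The pairs differed from each other. Between ApcMin/+ tumours and WT small intestine 17 members (26.6%) were at least 2-fold lower, against 3.94% of all genes, and 1 was at least 2-fold higher, against 6.06%; between ACKR2-/-ApcMin/+ tumours and ACKR2-/- small intestine 2 were lower, against 3.36%, and 8 (12.5%) were higher, against 5.96% of all genes. Sult1a1 alone was at least 2-fold lower in both (1.13% of all genes), and no member was at least 2-fold higher in both (3.14%). It read 728.5 and 373.7 in WT and ACKR2-/- tissue and 239.5 and 175.9 in ApcMin/+ and ACKR2-/-ApcMin/+ tumours (-1.35 ± 0.41, adjusted p = 0.144). Ugt2a3 went from 1114 to 374.3 in the first pair and from 1391 to 1885 in the second, and Cyp2d26 from 3595 to 1002 and from 2073 to 3983. Neither gene moved one way in both pairs.

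Of the 18 Gst genes 11 (61.1%) had a difference above 0 in small-intestinal tumours, near the 54.1% of all genes, and 6 (33.3%, against 5.96% of all genes) were at least 2-fold higher in the ACKR2-/-ApcMin/+ pair. Gstm5 read 1182 and 1636 in WT and ACKR2-/- tissue and 2544 and 2950 in tumours (0.98 ± 0.22, adjusted p = 0.0722), and Gsta4 read 790.5 and 1231 against 1357 and 2512 (0.90 ± 0.20, adjusted p = 0.0714). In both genes the tumours stood above the non-tumour tissue without passing the test. When only genes above 64 in all 8 arrays were tested, 3 of 36 members were called, Gsta4 among them, and all 3 were higher. The share of all genes called under that filter is not given here, so the count is not read as a result about the members. The aldo-keto reductase Akr1b8, of the phase I list, was called higher, at 687.0 and 648.7 against 1544 and 1618 (1.24 ± 0.15, adjusted p = 0.0135). It was the 1 gene of 34 on that list called in small-intestinal tumours.

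**Figure D4:**
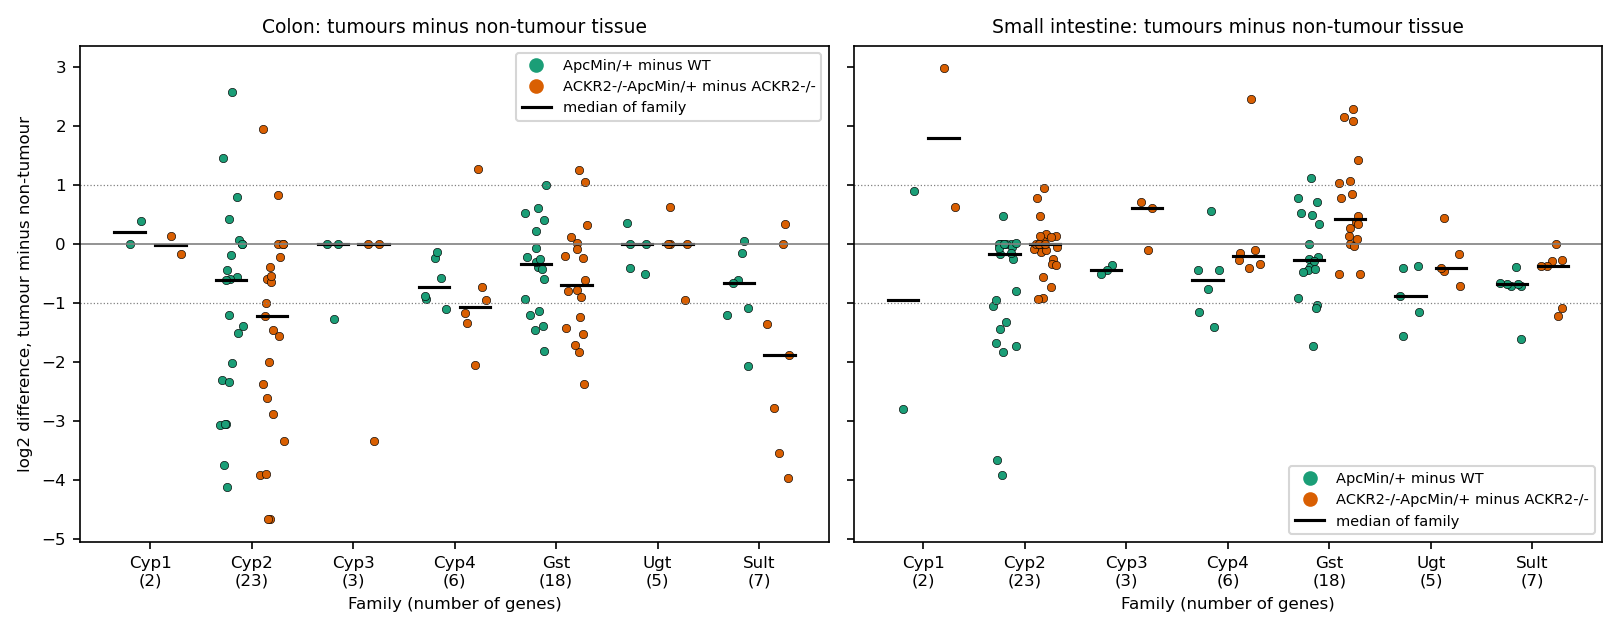
Log2 difference between tumours and non-tumour tissue for 64 genes by family, in colon (left) and small intestine (right); green points are ApcMin/+ minus WT, orange points ACKR2-/-ApcMin/+ minus ACKR2-/-, bars family medians and dotted lines 2-fold. In colon both Sult medians lie below 0; in small intestine the Gst median is -0.28 in the first pair and 0.42 in the second.

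The difference between the tumour effect in colon and that in small intestine was called for 4 members, against 2.17% of all genes in either direction, but for these it repeats the change in colon. The 4 were Cyp2d12 (difference of differences -4.39 ± 0.37, adjusted p = 0.0105), Cyp2f2 (-3.48 ± 0.43, adjusted p = 0.0238), Cyp2d10 (-2.40 ± 0.39, adjusted p = 0.0446) and Cyp2d9 (-2.21 ± 0.36, adjusted p = 0.0433). Cyp2d12 and Cyp2f2 were below the floor in all 4 small-intestinal arrays and passed the filter through the 4 colon arrays alone. The other 2 were at or near the floor there, with Cyp2d10 between 21.8 and 68.5 and Cyp2d9 between 62.9 and 78.1 over all 4 arrays, so a fall in small intestine could not be measured and no comparison of the tissues can be drawn from them. Cyp2c68 and Cyp2s1, expressed in both tissues, missed the threshold. Cyp2c68 read 1957 and 2677 in non-tumour small intestine and 941.7 and 2520 in its tumours (-2.93 ± 0.51, adjusted p = 0.0505), and Cyp2s1 stayed between 1739 and 1839 in all 4 small-intestinal arrays (-2.34 ± 0.53, adjusted p = 0.0893). With the filter of 64 in all 8 arrays, 2 members were called, Cyp2c68 among them, with no share of all genes given beside them.

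Among tumours, the tissues kept different enzymes. Without a test, 16 members were at least 2-fold lower in colon than in small-intestinal tumours in both genotypes, against 4.93% of all genes, and 4 were at least 2-fold higher, against 2.79%. Cyp3a11, Cyp3a25 and Cyp3a13, and 5 of the 6 Cyp4 genes, were in the first set; Cyp2d34, Cyp2d10, Cyp2d9 and Gsta3 made up the second. Gsta3 read 904.9 and 1014 in ApcMin/+ and ACKR2-/-ApcMin/+ colon tumours against 294.3 and 254.9 in small-intestinal tumours.

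Between ACKR2-/- and WT non-tumour tissue 0 of 64 members were called, against 0.655% of all genes. The count is near that share and is not read as a result about the members. The members with the smallest adjusted p (limma) were Cyp4f18 (-1.26 ± 0.32, adjusted p = 0.086) and Gsta4 (0.79 ± 0.20, adjusted p = 0.0898). Cyp4f18, which hydroxylates leukotriene B4 in leukocytes, read 124.8 in WT and 72.6 in ACKR2-/- colon and 234.9 and 70.3 in small intestine. In both tissues together, 0 members rose by 2-fold or more (0.370% of all genes) and 0 fell by as much (2.28%). Centring each array on its median moved the median of all genes from -0.02 to 0.43 and gave 10 members called, all higher. The share of all genes called after centring is not given here. Of the other lists, the receptor Ppard was called, at 2964 in WT and 763.6 in ACKR2-/- colon and 2692 and 431.4 in small intestine (-2.30 ± 0.24, adjusted p = 0.0392). WT arrays held no Y-linked signal and ACKR2-/- arrays did, as given above, and the part of sex in these values was not tested.

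Single members stood far apart in 1 tissue. In colon 4 members were at least 2-fold higher and 1 was lower in ACKR2-/- mice, against 2.01% and 5.12% of all genes; in small intestine 2 were higher and 5 were lower, against 1.57% and 6.90%. Cyp2c55 read 9970 in WT and 1147 in ACKR2-/- small intestine, 8.69-fold lower, against 13210 and 8671 in colon. The colonocyte markers Car1 (18860 and 62.6), Aqp8 (957.7 and 105.1) and Slc37a2 (577.5 and 23.3) were higher in the same WT small-intestinal array. Car4 (9661 and 9812), Slc26a3 (4981 and 6718), Saa1 (19050 and 24420), Ggh (432.9 and 525.0) and Muc3 (27830 and 28850) were lower in it. Atp12a and Scnn1g were below the floor in both arrays. The part of these markers in the Cyp2c55 values was not tested. Cyp1a1, the textbook target of Ahr, read 603.4 in WT small intestine and 60.7, below the floor, in ACKR2-/- small intestine, and the order was turned in the tumours, at 86.8 in ApcMin/+ and 506.5 in ACKR2-/-ApcMin/+. In colon all Cyp1a1 values lay between 24.2 and 70.6. Cyp2e1, which oxidises ethanol and is also known from adipose tissue and liver, read 1016 in WT and 154.4 in ACKR2-/- colon, 75.6 and 65.7 in colon tumours, 817.0 and 835.6 in non-tumour small intestine, and 34.3 and 435.2 in ApcMin/+ and ACKR2-/-ApcMin/+ small-intestinal tumours. The fat-cell hormone Adipoq was high and low in the same arrays, at 1001, 236.9, 5.15, 18.4, 1235, 1402, 9.25 and 634.3 in that order; its part in the Cyp2e1 values was not tested.

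In tumours 0 of 64 members were called for ACKR2 genotype, against 0.0285% of all genes (4 genes). Cyp2b10 and Gstm6 were at least 2-fold higher in both tissues, against 0.207% of all genes, and 0 members were at least 2-fold lower in both, against 1.35%. Cyp2b10 read 175.0 in ApcMin/+ and 478.1 in ACKR2-/-ApcMin/+ colon tumours and 816.8 and 3703 in small-intestinal tumours, 2.73-fold and 4.53-fold higher (1.82 ± 0.35, adjusted p = 0.152). Its other probe sets gave 2.04 and 1.81. Gstm6 read 170.1 and 472.8 in colon and 144.3 and 675.5 in small-intestinal tumours, 2.78-fold and 4.68-fold higher (1.85 ± 0.31, adjusted p = 0.142). In both genes the ACKR2-/-ApcMin/+ array was the higher in each tissue, as the 2-fold rule that picked them requires. Nr1i2 moved the other way, at 546.8 and 178.1 in colon and 1059 and 471.5 in small-intestinal tumours.

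The counts of single pairs differed between the tissues, a difference that was not tested. In small-intestinal tumours 18 of 64 members (28.1%) were at least 2-fold higher without ACKR2, against 1.94% of all genes, and 0 were at least 2-fold lower, against 4.62%. In colon tumours 3 were higher, against 1.97%, and 9 (14.1%) were lower, against 4.91%. The small-intestinal set held members of all families: Ugt2a3 (374.3 in ApcMin/+ and 1885 in ACKR2-/-ApcMin/+ tumours), Gstm3 (792.4 and 3452), Cyp2d26 (1002 and 3983), Gstt1 (357.0 and 1310), Cyp4v3 (2724 and 8040), Cyp3a11 (8481 and 23530) and Sult1b1 (3373 and 6961) are examples. The lower set in colon was led by Cyp2c55 (5755 and 340.1), Cyp2c65 (2028 and 388.8), Sult1a1 (1020 and 239.5) and Cyp2s1 (1293 and 374.5). Cyp2c65 went in opposite directions by 2-fold or more in the tissues (0.214% of all genes), at 1466 and 3840 in small-intestinal tumours. Each set rests on 1 pair of arrays, without replicates or a test.

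The ApcMin/+ small-intestinal tumour array is common to this set and to the 17 members that were lower than in WT tissue, so the 2 counts are not independent. Enterocyte markers summed to 141500 in that array and to 266200 in ACKR2-/-ApcMin/+ small-intestinal tumours, beside 266700 in WT and 210600 in ACKR2-/- tissue. Smooth muscle markers summed to 27170 and 12570, and fibroblast markers to 20470 and 5997, in the ApcMin/+ and ACKR2-/-ApcMin/+ tumours. Xist, at 4827 and 126.9, differed as well. The part of these in the result was not tested.

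**Figure D5:**
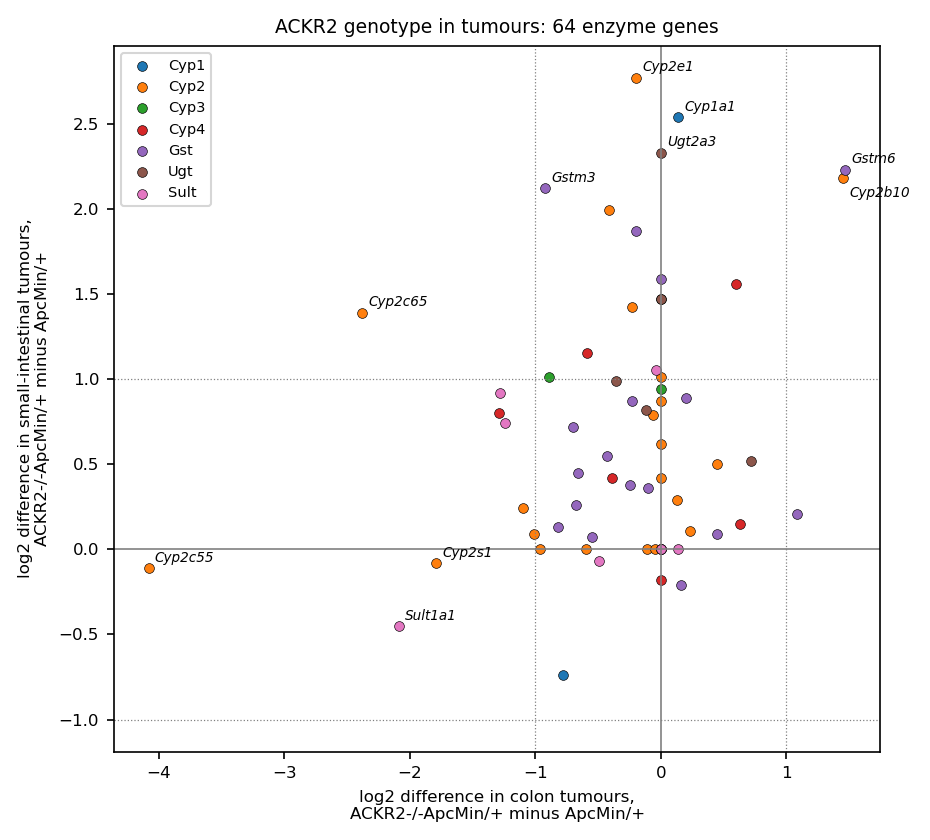
Log2 difference between ACKR2-/-ApcMin/+ and ApcMin/+ tumours in colon (x axis) and small intestine (y axis) for 64 genes coloured by family; dotted lines mark 2-fold, and the 4 arrays behind the axes are separate. Cyp2b10 and Gstm6 lie beyond 2-fold on both axes, and Cyp2c55 lies farthest left, at -4.08.

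Of the 64 members 42 were called in at least 1 comparison and 22 in none, of which 11 were above 64 in all 8 arrays. The share of all genes called in at least 1 comparison is not given here, so these counts are not read as a result about the members. Gstp1, the pi-class transferase of many epithelia, ran from 9859 to 16260 and was within 1.65-fold over all 8 arrays. Gsto1, which reduces dehydroascorbate, ran from 6603 to 12910, Gstt2 from 958.6 to 1787, Gstm4 from 219.7 to 438.4 and Ugt2b35 from 730.3 to 1453, each within 2-fold over the arrays. The mitochondrial and peroxisomal Gstk1 ran from 1095 to 2285 and Ugt2b34 from 5084 to 14160. Others were dim throughout: Cyp2b9, Cyp2c23, Cyp2c54, Cyp2c70, the vitamin D 25-hydroxylase Cyp2r1, Gsto2 and Sult4a1 stayed at or below 141.6. Cyp2c38 ran from 55.2 to 254.1 and Gsta2 from 43.4 to 270.3. The remaining uncalled members, Cyp1a1, Cyp2c55, Cyp2c65, Cyp2e1, Cyp4f18 and Gstm3, varied by 5.45-fold (Cyp4f18) to 38.8-fold (Cyp2c55) over the arrays, with values at the floor where below it, but not alike in the arrays being compared.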

How the data were processed

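Biotin-labelled RNA, pooled per genotype and tissue, was hybridised to 8 arrays (n = 1 per group). The authors deposited linear MAS5 intensity values (MAS5 and Partek are named in the submitters' processing notes, without versions); their trimmed mean, leaving out 2% at each end, was 500 in every array, so the arrays had been scaled. Of 45101 probe sets 34945 named 1 gene, 932 several and 9160 none; those with 1 gene gave 18193 genes. The probe set with the highest mean stood for a gene, values were raised to 64, log2 was taken, and genes above 64 in at least 2 of 8 arrays were tested (14036).

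All tests are two-sided and come from 1 model in limma 3.58.1 (R 4.3.3) with 6 coefficients: 4 means for tissue and tumour status, and an ACKR2 effect per tumour status shared by the tissues. It had 2 residual degrees of freedom and 4.13 prior ones (median SD 0.223, log2). On simulated arrays with known changes it recovered 60% of genes changed by 1 (log2) and 100% of those changed by 2 in the colon tumour comparison, with 16 false calls among 13836 unchanged genes. Of genes changed by 4 it recovered 98%. The simulated arrays took normal noise from the model's own spread, had no floor and held no other differences between groups. They thus differ from the data, and their shares do not show how reliable the calls above are. Recovery and false calls were not tested on further pools of animals, and the shares given here do not cover variation between animals. Pairs of arrays were also described without tests.

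All 64 members may be named; values in every array are given for up to 3 members per family, direction and comparison, ranked by the smaller pair difference among those at least 2-fold apart in both pairs, and for further members chosen after their values were seen. Listed genes of the pathway were treated alike, with up to 4 per list. The members and lists were chosen with earlier results of these data known. Marker lists not given elsewhere, for goblet cells, endothelium, hepatocytes, exocrine pancreas, adipocytes and mast cells, had 2 of 7, 0 of 6, 2 of 5, 1 of 4, 2 of 4 and 0 of 6 genes lower and 0, 0, 1, 0, 0 and 3 higher in colon tumours; no nephron marker passed the filter. Promoters were aligned with Biopython 1.88 and figures drawn with matplotlib 3.10.9. Alternatives tried were omitting the floor, omitting the filter or asking for 64 in all 8 arrays, scaling by quantiles or by the median, averaging probe sets, fitting without a trend, and leaving out each array; leaving out both WT or both ACKR2-/-ApcMin/+ arrays was added after the data were seen.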

Additional observations from a re-analysis of the deposited data

Results flagged for a closer look

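A test of the difference in tumour effect between colon and small intestine passed for Cyp2d12 (-4.39 on the log2 scale, colon minus small intestine), Cyp2f2 (-3.48), Cyp2d10 (-2.40) and Cyp2d9 (-2.21); in small intestine all 4 lay at or near the floor in every array, so the difference repeats the change in colon. Cyp2c65 moved in opposite directions with ACKR2 genotype in tumours, by -2.38 in colon and by 1.39 in small intestine, and this difference was not tested. No group had the 4 arrays needed to look for an outlying sample.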

How the results depend on the processing

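With 8 arrays, 2 residual degrees of freedom and 1 pool per group, depth of replication limits every call. The labels give no replicate numbers to pair by; the model's terms already pair arrays of 1 genotype between the tissues, so no further block was fitted. Leaving out 1 array leaves 1 residual degree of freedom: between non-tumour tissues 0 to 3 members were called in place of 32 (25 to 41 at an unadjusted limma p under 0.05) and 0 to 57 of all genes in place of 2994, in colon tumours 0 to 0 in place of 25 (14 to 35 unadjusted) and 0 of all genes in place of 3297, for the difference in tumour effect 0 to 0 in place of 4, and 0 to 0 elsewhere. Each of the 8 arrays had this effect, and the 3 calls came without the ACKR2-/-ApcMin/+ colon tumour array. Without both WT arrays, or without both ACKR2-/-ApcMin/+ arrays, 0 members were called for colon tumours and for the difference, and between non-tumour tissues 0 and 3. Without the filter the counts were 7 between non-tumour tissues, 0 for colon tumours and 0 for the difference, and with the filter on all 8 arrays, which left 36 members, they were 20 between non-tumour tissues, 3 for small-intestinal tumours, 2 for the difference, 1 for ACKR2 in non-tumour tissue and 1 for ACKR2 in tumours. Median centring gave 2 for the difference and 10 for ACKR2 in non-tumour tissue, all higher, where it also moved the median of all genes from -0.02 to 0.43. The cause of these changes was not tested. Counts over all genes are not given at the unadjusted p or under alternatives other than leaving out 1 array. Those member counts are therefore not read as results about the members. Under the other alternatives the colon tumour count stayed between 18 and 26. No result reversed.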

Other observations

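Some genes of these families share a probe set and were no members. The 3 probe sets common to 8 Ugt1a genes, among them Ugt1a1, were bright in every array; the brightest read 18770 and 15000 in WT and ACKR2-/- colon, 10480 and 4846 in ApcMin/+ and ACKR2-/-ApcMin/+ colon tumours, 21930 and 19410 in non-tumour small intestine and 14060 and 23470 in its tumours. A probe set common to Gsta1, Gsta2 and Gm3776 read 2090 and 6769 in WT and ACKR2-/- colon, 2627 and 1461 in colon tumours, 2699 and 4941 in small intestine and 3566 and 8742 in its tumours.

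Among 10 cytochrome P450 genes of other families, which act on steroids, sterols, bile acids and retinoids, 1 was called higher and 1 lower in colon tumours, no more than the 11.0% and 12.5% of all genes. Cyp51, of cholesterol synthesis, read 1322 and 1160 in WT and ACKR2-/- colon and 2063 and 2523 in tumours (0.88 ± 0.22 SE, adjusted p = 0.0336, limma). Cyp7b1, an oxysterol hydroxylase, read 186.3 and 225.3 against 102.5 and 66.9 (-1.31 ± 0.26, adjusted p = 0.0183). Between non-tumour tissues Cyp11a1, of steroid synthesis, read 383.1 and 353.8 in colon against 52.1 and 82.2 in small intestine (2.34 ± 0.30, adjusted p = 0.00455). These genes were chosen after the files were read.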
